A study of Homo sapiens with 8 samples.

Results

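The matrix metalloproteinases (MMPs) and their tissue inhibitors (TIMPs) were followed in MCF10A cells after DNA damage. The 10 genes MMP1, MMP2, MMP3, MMP7, MMP9, MMP10, MMP13, MMP14, TIMP1 and TIMP3 were taken from a fixed list of symbols, and all 10 were found among the 20296 named genes with a measured probe. Each had 1 probe on the array. MCF10A is a human line of mammary epithelium that does not form tumours, and p53+/+ cells with wild-type p53 were compared with p53−/− cells, a p53-null derivative whose making is not given in the sources used here. Per the labels, cells of both genotypes received 0.5 µg/ml of doxorubicin (adriamycin, ADR) for 2 h and were harvested 12, 24 or 48 h later, and untreated cells served as the 0 h sample. The study's methods give a higher dose for the same experiment. Each of the 8 genotype and time combinations was measured on 1 array, so no value has a replicate error.

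MMPs are zinc-dependent proteases, secreted or anchored in the membrane, that cleave collagens, laminins, fibronectin and many surface proteins. Most are made as inactive pro-enzymes that other proteases switch on, and TIMPs block the active enzymes by binding their catalytic site. In mammary tissue these enzymes and inhibitors take part in the remodelling of the gland and in the invasion of tumours. An array measures transcripts only, so pro-enzyme activation and inhibition were not observed here, and in a bulk sample fewer cells of a type and less RNA per cell cannot be told apart.

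Levels are log2 processed signals, the scanner software's background-corrected intensity, relative to the 75th percentile of the same array. A level of 0 thus equals that percentile, and levels of different genes come from different probes and are not set against each other. The 75th percentile of the signal ranged from 661.2 to 1198.8 over the arrays, 55.0 to 67.6% of spots were well above background, and no spot was saturated. Spike-in spots were well above background on 7 arrays (59.1 to 60.6% of them) but not on the p53+/+ 48 h array (0.3%). The genotype differences of TIMP3, MMP14, MMP2, MMP13, MMP10 and MMP7 are therefore also given without the 48 h arrays. So are the counts of listed MMPs and TIMPs called, or past 2-fold, between genotypes. Other results that use that array, such as those of further genes, summed marker levels and correlations, are given with it only. All 8 arrays lay on 1 slide with the genotypes in separate columns, so slide column and genotype cannot be told apart. The label check gave CDKN1A and MDM2, both direct p53 targets, higher in treated p53+/+ cells by 3.31 and 3.15 on the log2 scale. On the array labelled p53+/+ 0 h, some genes that set the genotypes apart read near the p53−/− level. CDH1 read −3.13 there, against 1.42 to 2.10 in treated p53+/+ cells and −3.55 on the p53−/− 0 h array, and DCN read 5.75, against 2.09 to 2.37 and 5.85. Others did not, as CDKN1A read −1.14 there and −2.97 on the p53−/− 0 h array, and IL1B 2.67 and −1.39. The values thus do not settle which cells that array held, and the changes past 2-fold from it are given with the p53−/− 0 h array as baseline too. That second comparison sets treated p53+/+ against untreated p53−/− cells, so it mixes genotype with treatment.

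After ADR, 4 of the 10 genes were called different between the genotypes in a fit over the treated arrays. TIMP3, the matrix-bound inhibitor, was higher in treated p53+/+ cells by 3.47 on the log2 scale (11.1-fold), and MMP14, the membrane-anchored enzyme, by 1.39 (2.62-fold). MMP2, gelatinase A, and MMP13, collagenase 3, were higher in treated p53−/− cells, where they stood at least 3.17-fold and at least 1.64-fold above the p53+/+ level. TIMP1, a secreted inhibitor of most soluble MMPs, differed by 0.01 (95% interval −0.48 to 0.50). The calls come from limma, fitted over 28490 probes on the 6 treated arrays with a Benjamini-Hochberg adjusted p of 0.05 as threshold. In that fit the 3 time points of a genotype took the place of replicates, so a p-value sets the genotype difference against the movement over time. Of all probes tested, 10.4% were called higher in p53+/+ cells and 7.48% higher in p53−/− cells, and 2 of the 10 genes were called in each direction. Without the 24 h arrays 0 of the 10 genes were called, with no share of all probes at hand for that fit. Without the 48 h arrays TIMP3 (3.55, adjusted p = 0.0363), MMP14 (1.34, adjusted p = 0.0480) and MMP2 (−2.12, adjusted p = 0.0145) were called and MMP10 joined them, whereas MMP13 was not called. All 10 genes passed the filter on dim probes, MMP2, MMP3 and MMP13 through p53−/− arrays alone and MMP10 through p53+/+ arrays alone. The calls of MMP2 and MMP13 thus rest on treated p53+/+ levels that were not measured above background. With normexp background correction 0 genes were called higher in p53−/− cells. Requiring detection on all arrays likewise left 0, as it leaves out MMP2 and MMP13. The median difference was −0.62 over the 10 genes and 0.09 over all probes.

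**Figure D1:**
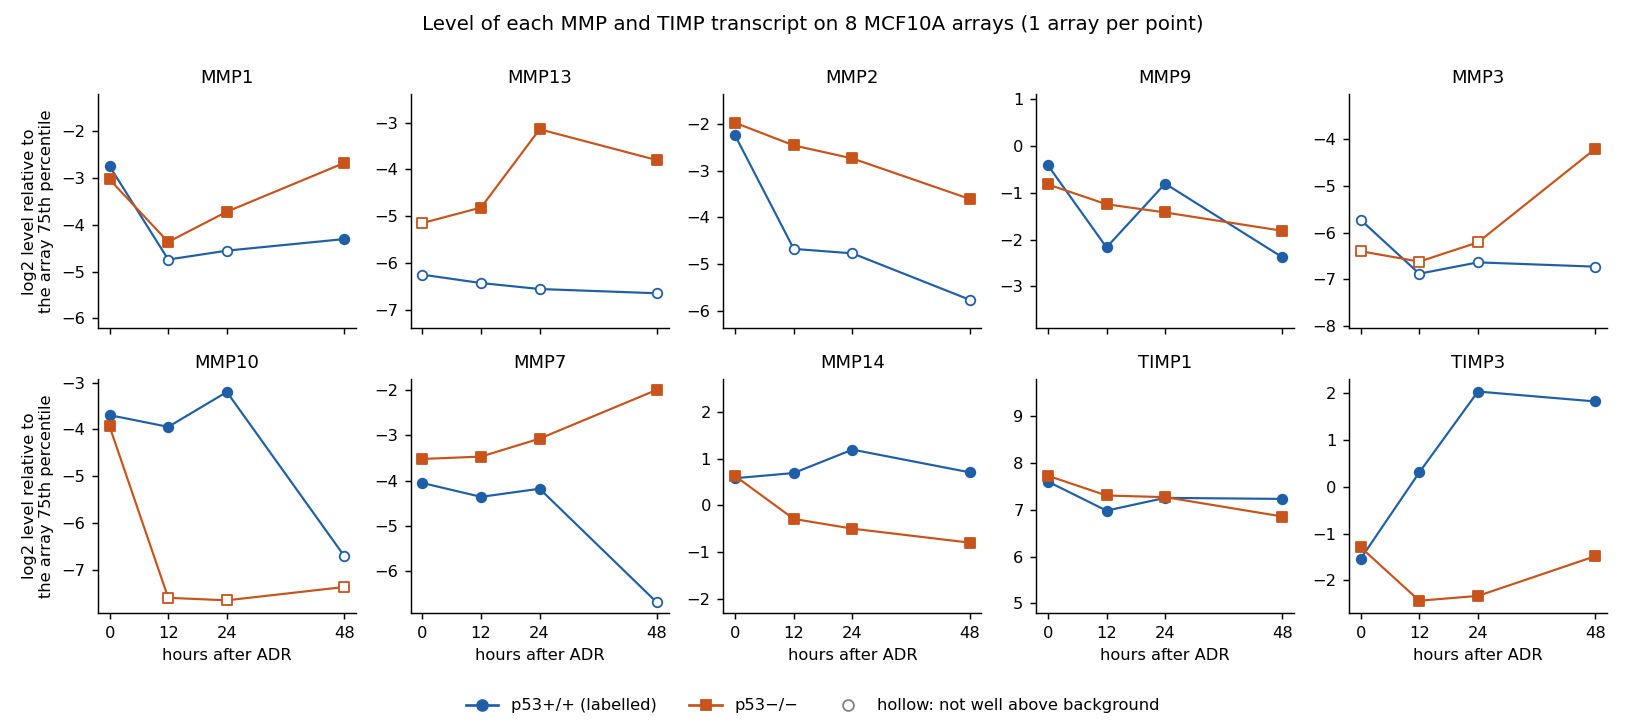
Log2 level of each MMP and TIMP transcript relative to the 75th percentile of its array, against hours after ADR, for p53+/+ (circles) and p53−/− cells (squares), with 1 array per point. Hollow points were not well above background. TIMP3 and MMP14 lie above their p53−/− levels at 12, 24 and 48 h, MMP2 and MMP13 below, and the curves of TIMP1 and MMP9 cross.

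Promoter sequence was at hand in the RefSeq table of GRCh38.p14 for 5 of the 10 genes, namely MMP7, MMP10, MMP14, TIMP1 and TIMP3. MMP7 and MMP10, of the same gene cluster but not adjacent, had treated levels on opposite sides of the other genotype's. Neither was called, and at 48 h MMP10 was not well above background in either genotype. The 250 bases before the start site are printed for MMP7 and MMP10, and for MMP14 and TIMP3, the genes called higher in p53+/+ cells. They lie at chr11:102530748-102530997 and chr11:102780629-102780878 on the minus strand and at chr14:22836335-22836584 and chr22:32801455-32801704 on the plus strand. Capitals mark TGANTCA, the AP-1 type element, and TATAAA in the first pair, and GGGCGG or its reverse complement, the GC box, in the second.
MMP7: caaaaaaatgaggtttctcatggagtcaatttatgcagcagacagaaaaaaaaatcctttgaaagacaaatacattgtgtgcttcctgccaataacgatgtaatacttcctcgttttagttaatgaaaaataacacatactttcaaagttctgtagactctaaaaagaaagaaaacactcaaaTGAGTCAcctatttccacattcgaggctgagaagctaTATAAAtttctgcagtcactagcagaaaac
MMP10: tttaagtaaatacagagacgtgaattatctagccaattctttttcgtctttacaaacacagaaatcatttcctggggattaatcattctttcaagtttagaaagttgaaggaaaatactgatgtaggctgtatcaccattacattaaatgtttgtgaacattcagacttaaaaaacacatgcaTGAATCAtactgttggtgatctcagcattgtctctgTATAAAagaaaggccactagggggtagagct
MMP14: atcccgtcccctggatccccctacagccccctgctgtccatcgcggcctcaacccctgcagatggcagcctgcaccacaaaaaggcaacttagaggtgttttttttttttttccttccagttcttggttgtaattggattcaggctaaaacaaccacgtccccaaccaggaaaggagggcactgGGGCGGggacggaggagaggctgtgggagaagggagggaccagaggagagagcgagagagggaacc
TIMP3: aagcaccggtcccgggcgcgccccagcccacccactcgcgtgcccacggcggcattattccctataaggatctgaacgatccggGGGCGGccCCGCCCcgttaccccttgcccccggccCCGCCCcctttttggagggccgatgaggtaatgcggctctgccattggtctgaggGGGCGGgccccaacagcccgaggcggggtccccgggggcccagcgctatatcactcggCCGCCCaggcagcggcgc

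MMP7 and MMP10 shared a layout, with TGANTCA from 67 to 61 bases before the start site in both and TATAAA beginning 30 bases before it in MMP7 and 31 in MMP10. On either strand, TGANTCA was present in 6.57% and TATAAA in 10.7% of the 35116 promoters of the same length. Neither was found in the windows of MMP14, TIMP1 and TIMP3. GGGCGG, present in 42.6% of promoters, occurred 1 time in MMP14, 2 times in TIMP1 and 5 times in TIMP3, and the motifs overlapped nowhere. The GC content was 33.6% for MMP7, 34.4% for MMP10, 56.8% for MMP14, 64.8% for TIMP1 and 72.4% for TIMP3, against a median of 58.0% over all promoters. A p53 half-site, found in 5.57% of all promoters, matched in none of the 5 windows, which says only that these letters are not there. MMP1, MMP2, MMP3, MMP9 and MMP13 had no entry in the table.

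The collagenases MMP1 and MMP13 cut fibrillar collagen. MMP1, the interstitial collagenase (transcript NM_002421, 10 spots), had a level of −2.75 on the array labelled p53+/+ 0 h, from which it went to −4.74, −4.55 and −4.31 at 12, 24 and 48 h, and the 12 and 24 h values were not well above background. In p53−/− cells MMP1 read −3.03 at 0 h, then −4.37, −3.72 and −2.68 after ADR. It was thus low at 12 h in both genotypes and by 48 h 0.35 above its 0 h level in p53−/− cells (technical SD 0.06). The technical SD of a log2 difference was estimated from the 999 probes printed in 10 spots and covers differences between spots, not between cultures or arrays. At 12 h MMP1 had fallen past 2-fold in p53−/− cells (2.52-fold). From the array labelled p53+/+ 0 h, MMP1 fell at least 3.99-fold, at least 3.38-fold and 2.95-fold at the 3 times. The treated p53+/+ levels lay below that of the p53−/− 0 h array at least 3.28-fold, at least 2.77-fold and 2.42-fold. The genotype difference of MMP1 was −0.95 (SE 0.42) with an adjusted p of 0.171 from limma, and the treated levels overlapped. Without scaling it was −1.54 and called (adjusted p = 0.0390).

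MMP13, collagenase 3 (NM_002427, 2 spots), stayed between −6.65 and −6.25 on the 4 p53+/+ arrays (−6.25, −6.43, −6.56 and −6.65 in order of time), in no case well above background. In p53−/− cells MMP13 read −5.15 at 0 h, not well above background, and −4.81, −3.14 and −3.80 after ADR, all well above it. The treated groups did not overlap, and the level rose past 2-fold from 0 h in p53−/− cells at 24 and 48 h, by at least 4.01-fold and at least 2.54-fold. The genotype difference was −2.62 (SE 0.41) with an adjusted p of 0.00895 from limma. Since the p53+/+ levels were not measured above background, the bound on the fold was 2.57 at 24 h and 1.77 at 48 h, and no bound above 1 could be given at 12 h. With normexp background correction the difference was −0.46 and not called (adjusted p = 0.128), and leaving out the arrays of 24 h or of 48 h gave −2.23 and −2.51, likewise not called (adjusted p = 0.106 and 0.0675).

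The gelatinases MMP2 and MMP9 degrade denatured collagen and collagen of the basement membrane. MMP2, gelatinase A (NM_004530, 2 spots), stood at −2.25 on the array labelled p53+/+ 0 h, compared with −4.67, −4.77 and −5.76 in the treated p53+/+ cells, where it was not well above background. In p53−/− cells MMP2 read −1.98 at 0 h, then −2.46, −2.74 and −3.61 after ADR, each well above background. Both series went down, and every treated p53+/+ value lay below every p53−/− value. The genotype difference was −2.13 (SE 0.41) with an adjusted p of 0.0174 from limma, and the p53−/− level was at least 4.63-, 3.40- and 2.03-fold higher at 12, 24 and 48 h. From the array labelled p53+/+ 0 h, MMP2 fell at least 5.37-, 4.77- and 5.19-fold. The treated p53+/+ levels lay at least 6.48-, 5.76- and 6.26-fold below that of the p53−/− 0 h array. In p53−/− cells the log2 change from 0 h was −0.48, −0.76 and −1.63 (technical SD 0.11), past 2-fold at 48 h (3.09-fold). The call was lost with normexp background correction (−0.61, adjusted p = 0.0531) and on leaving out the arrays of 12 h or of 24 h (adjusted p = 0.0657 and 0.171).

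MMP9, gelatinase B (NM_004994, 10 spots), was detected well above background on each of the 8 arrays. Its level on the array labelled p53+/+ 0 h was −0.41, and ADR-treated p53+/+ cells gave −2.16, −0.80 and −2.38. In p53−/− cells MMP9 read −0.82, −1.24, −1.42 and −1.81. From the array labelled p53+/+ 0 h, MMP9 fell past 2-fold at 12 and 48 h (3.38- and 3.91-fold) but not at 24 h (log2 change −0.39). The treated p53+/+ level of MMP9 lay 2.54- and 2.94-fold below that of the p53−/− 0 h array at 12 and 48 h, with a log2 difference of 0.02 at 24 h. Its p53−/− levels stepped down with time, whereas the p53+/+ level at 24 h lay above those at 12 and 48 h by more than the technical SD of 0.05. The genotype differences were −0.92, 0.62 and −0.57 at 12, 24 and 48 h, so their sign turned at 24 h, though with spike-in scaling the 24 h value was −0.08. Their mean was −0.29 (SE 0.43, adjusted p = 0.687 from limma, 95% interval −1.33 to 0.75).

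The stromelysins MMP3 and MMP10 have a broad range of matrix substrates and can activate other pro-MMPs. MMP10, stromelysin 2 (NM_002425, 2 spots), read −3.69 on the array labelled p53+/+ 0 h, next −3.94 and −3.20 at 12 and 24 h, and −6.70 at 48 h, which was not well above background. In p53−/− cells MMP10 read −3.93 at 0 h, then −7.60, −7.65 and −7.37 after ADR, none of them well above background. The transcript was therefore detected until 24 h in p53+/+ cells but at 0 h alone in p53−/− cells. The p53+/+ level was at least 3.00-fold higher at 12 h and at least 5.20-fold higher at 24 h. At 48 h neither genotype was well above background. The difference over the 3 times was 2.92 (SE 0.84), or at least 1.98-fold, with an adjusted p of 0.0584 from limma. Without the 48 h arrays, of which the p53+/+ one had no spike-in signal, it was 4.05 and called (adjusted p = 0.00931). It was also called with normexp (1.15, adjusted p = 0.0100) and with no filter on dim probes (adjusted p = 0.0452). These were the only 3 of 12 settings with a call. With quantile normalization it was 2.33 and not called (adjusted p = 0.143), nor was it called without scaling (adjusted p = 0.0972). Leaving out the arrays of 12 h or of 24 h gave no call either (adjusted p = 0.227 and 0.303). The 48 h difference was −0.20 with quantile normalization and −0.19 without scaling. From its 0 h level in p53−/− cells MMP10 fell at least 3.01-, 3.12- and 3.40-fold. At 48 h the p53+/+ level was at least 1.91-fold below that of the array labelled p53+/+ 0 h and at least 1.61-fold below the p53−/− one.

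MMP3, stromelysin 1 (NM_002422, 2 spots), was well above background on 1 of 8 arrays, the p53−/− 48 h array at −4.21. It read −5.73, −6.88, −6.63 and −6.73 on the p53+/+ arrays and −6.40, −6.62 and −6.21 at 0, 12 and 24 h in p53−/− cells. MMP3 therefore appeared at the last time point of p53−/− cells, at least 2.05-fold above its 0 h level and at least 1.33-fold above the p53+/+ level. The genotype difference of −1.07 (SE 0.60) had an adjusted p of 0.262 from limma, and it was 0.07 with normexp (the range of its adjusted p over 10 alternatives was 0.0850 to 0.823).

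MMP7, matrilysin (NM_002423, 2 spots), is the small epithelial enzyme that lacks the C-terminal domain of most other MMPs. On the array labelled p53+/+ 0 h it stood at −4.05, before −4.36 and −4.18 at 12 and 24 h and −6.70 at 48 h, which was not well above background. In p53−/− cells MMP7 read −3.52, −3.47, −3.07 and −1.99. The p53−/− level was the higher one at every hour, and the distance grew from 0.89 at 12 h and 1.11 at 24 h to 4.71 at 48 h, where the fold was at least 6.22. The p53+/+ level at 48 h was at least 1.49-fold below that of the array labelled p53+/+ 0 h and at least 2.15-fold below the p53−/− one. In p53−/− cells the change from 0 h was 0.05, 0.45 and 1.53 (technical SD 0.14, 0.14 and 0.11), past 2-fold at 48 h (2.89-fold). The genotype difference over the 3 times was −2.24 (SE 0.73) with an adjusted p of 0.0826 from limma, and −2.83 and called without scaling (adjusted p = 0.0410). Without the 48 h arrays it was −1.0 and likewise not called (adjusted p = 0.0714), so the 48 h point carried much of the mean.

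MMP14, membrane type 1 MMP (NM_004995, 2 spots), sits in the plasma membrane, cleaves collagen at the cell surface and activates pro-MMP2. It was well above background on all 8 arrays and read 0.58 on the array labelled p53+/+ 0 h, next to 0.69, 1.19 and 0.71 in treated p53+/+ cells. In p53−/− cells MMP14 read 0.63 at 0 h, then −0.29, −0.50 and −0.80 after ADR. The 2 untreated arrays differed by 0.05, within the technical SD of 0.07, though the cells on the labelled p53+/+ one are not settled. The treated groups did not overlap. In p53−/− cells the level fell past 2-fold at 24 and 48 h (2.18- and 2.68-fold, but under 2-fold without scaling, −0.75 and −0.98), whereas the p53+/+ changes of 0.11, 0.61 and 0.13 stayed under 2-fold. The latter were 0.07, 0.57 and 0.08 with the p53−/− 0 h array as baseline. The genotype difference was 1.39 (SE 0.23) with an adjusted p of 0.0112 from limma. It was 0.79 without scaling and 1.24 without the 24 h arrays, where it was not called (adjusted p = 0.0542 and 0.155).

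TIMP3 (NM_000362, 2 spots), the inhibitor that binds to the matrix and also blocks ADAM17 and ADAMTS enzymes, had the largest mean genotype difference of the 10 genes over the 3 times. Without the 48 h arrays the estimate for MMP10 was 4.05 and that for TIMP3 3.55. The MMP10 value rests on p53−/− levels not well above background, with bounds of only 3.00-fold at 12 h and 5.20-fold at 24 h, so the 2 genes cannot be ranked there. From −1.54 on the array labelled p53+/+ 0 h the level went to 0.31, 2.04 and 1.82 with ADR, well above background throughout. In p53−/− cells TIMP3 read −1.29 at 0 h, then −2.43, −2.33 and −1.48 after ADR. The lowest treated p53+/+ value lay above all p53−/− and 0 h values. Since the cells on the array labelled p53+/+ 0 h are not settled, a TIMP3 difference present before ADR cannot be told from one that arose after it. The fold between genotypes was 6.69, 20.6 and 9.90 at 12, 24 and 48 h (technical SD of the log2 difference 0.11, 0.10 and 0.07). The mean difference was 3.47 (SE 0.51) with an adjusted p of 0.00707 from limma, and over 12 alternatives it ranged from 2.87 to 3.84. It was not called without the 24 h arrays (3.02, adjusted p = 0.123). From the array labelled p53+/+ 0 h, TIMP3 rose 3.59-, 11.9- and 10.3-fold. Against the p53−/− 0 h array, across genotypes, the treated p53+/+ level was 3.03-, 10.04- and 8.67-fold higher. In p53−/− cells TIMP3 was 2.21- and 2.06-fold lower than at 0 h at 12 and 24 h, and by 48 h it was within 2-fold (1.14-fold). Without scaling the first 2 of these changes, −0.80 and −0.67, were under 2-fold and that at 48 h was 0.25.

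TIMP1 (NM_003254, 2 spots) was well above background on every array. The p53+/+ arrays, beginning with the one labelled 0 h, gave TIMP1 levels of 7.60, 6.98, 7.26 and 7.23. In p53−/− cells TIMP1 read 7.73, 7.31, 7.27 and 6.86. The treated groups overlapped and the genotype difference turned from −0.32 at 12 h to 0.38 at 48 h, with an adjusted p of 0.974 for the mean from limma. All treated levels lay below both 0 h levels, with changes of −0.87 to −0.35 within a genotype, none past 2-fold. The p53−/− changes depended on scaling, and without it they were −0.08, −0.08 and −0.42. With spike-in scaling they were −0.09 and −0.20 at 12 and 24 h. The p53+/+ changes from the array labelled 0 h were then −0.88 and −0.86.

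**Figure D2:**
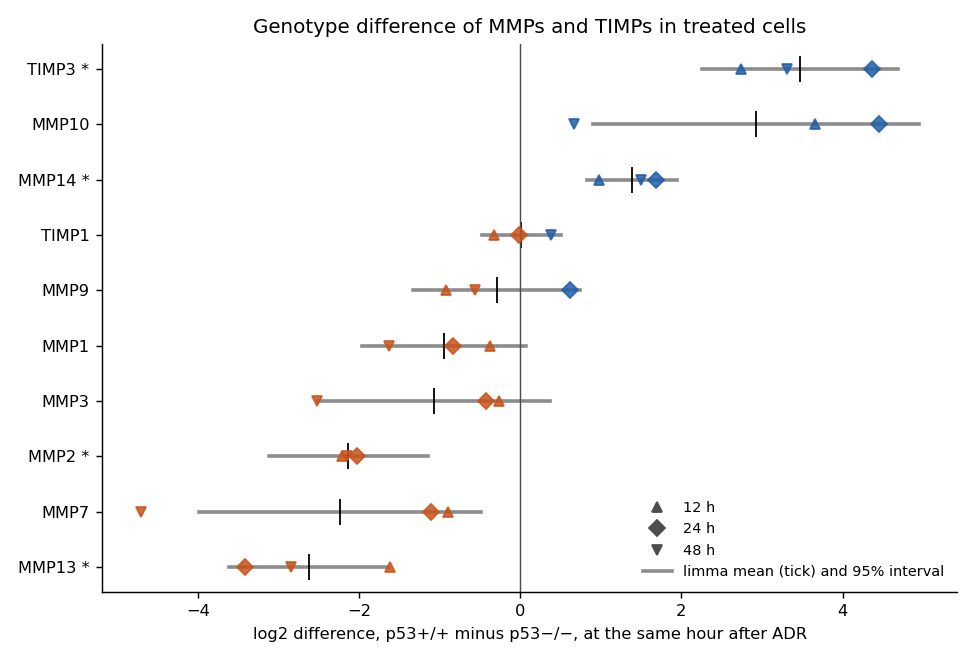
Log2 difference of treated p53+/+ minus treated p53−/− cells for each gene at 12, 24 and 48 h (triangles and diamonds, blue where p53+/+ was higher, orange where p53−/− was), with the limma mean (tick) and its 95% interval (grey bar). An asterisk marks the 4 called genes, TIMP3, MMP14, MMP2 and MMP13, and the 48 h point of MMP10 and of MMP7 stands apart from the other two.

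Ordered from the highest to the lowest level over the 8 arrays, most neighbouring levels of the genes detected on every array differed by more than 2 technical SDs. In TIMP3 the p53−/− 48 h level and the labelled p53+/+ 0 h level could not be separated in this way, nor the p53−/− 24 and 12 h levels. In MMP14 the 4 levels from 0.58 to 0.71, those of both 0 h arrays and of p53+/+ cells at 12 and 48 h, followed each other within that distance. In TIMP1 this held for the 4 levels from 7.23 to 7.31, and in MMP9 for the p53+/+ 24 h and p53−/− 0 h levels.

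Counted by non-overlapping treated levels, MMP10, MMP14 and TIMP3 were higher in p53+/+ cells (25.0% of all probes) and MMP2, MMP3, MMP7 and MMP13 in p53−/− cells (16.6%). For MMP3 the 2 groups were 0.02 apart, between levels not well above background, so that separation was not measured. For MMP10 the nearest levels of the 2 groups, both at 48 h, were 0.67 apart (technical SD 0.33). Neither was well above background, so that separation was not measured either. Past 2-fold at all 3 treated times were TIMP3 in the p53+/+ direction (1 of 10, against 5.23% of probes) and MMP2 and MMP13 in the p53−/− direction (2 of 10, against 4.41%). MMP13 was not well above background in p53+/+ cells, and with levels set no lower than each array's signal floor MMP2 alone remained in the latter direction. Over 12 and 24 h only, without the array that lacked spike-in signal, MMP10 joined TIMP3, and with spike-in scaling over these times MMP7 also joined MMP2 and MMP13. From 0 h to 48 h in p53−/− cells, 3 of the 10 genes rose past 2-fold (MMP3, MMP7 and MMP13, against 12.1% of probes) and 3 fell (MMP2, MMP10 and MMP14, against 7.00%). From the array labelled p53+/+ 0 h, 1 gene rose past 2-fold at all 3 treated times (TIMP3, against 6.50%) and 2 fell (MMP1 and MMP2, against 5.54%). These comparisons share arrays. The interaction of genotype and treatment, fitted with limma over all 8 arrays and 28947 probes, called 0 of the 10 genes (0.940% of probes in the p53+/+ direction and 0.746% in the other). At an unadjusted p under 0.05 it held 2 of them, TIMP3 with 3.72 (SE 1.02, adjusted p = 0.133) and MMP14 with 1.44 (SE 0.47, adjusted p = 0.187), as well as 4949 of all probes. With the p53−/− 0 h array as baseline of both genotypes this estimate equals the treated difference, and the same 4 genes were called.

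MMP7, MMP10, MMP1, MMP3 and MMP13 belong to 1 run of 9 consecutive protein-coding genes on chromosome 11, in the order MMP7, MMP20, MMP27, MMP8, MMP10, MMP1, MMP3, MMP12 and MMP13 in GRCh38.p14. MMP20, MMP27, MMP8 and MMP12 were not well above background on any array. The 5 detected neighbours did not move as 1 block. At 12 and 24 h in p53−/− cells, MMP10 was not well above background while MMP7, MMP1 and MMP13 were. In p53+/+ cells at the same hours MMP7 and MMP10 were well above background and MMP1, MMP3 and MMP13 were not. At 48 h, MMP7, MMP1, MMP3 and MMP13 were well above background in p53−/− cells, and MMP1 alone in p53+/+ cells. Detection did not start at the same level in both genotypes. The lowest signal well above background was −4.77 to −4.50 on the treated p53+/+ arrays and −5.70 to −5.53 on the treated p53−/− arrays. The MMP13 level of −4.81 in p53−/− cells at 12 h lay below the p53+/+ value of that hour, −4.77. The other members lie elsewhere, MMP2 on chromosome 16, MMP9 on 20, MMP14 on 14, TIMP1 on X and TIMP3 on 22.

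**Figure D3:**
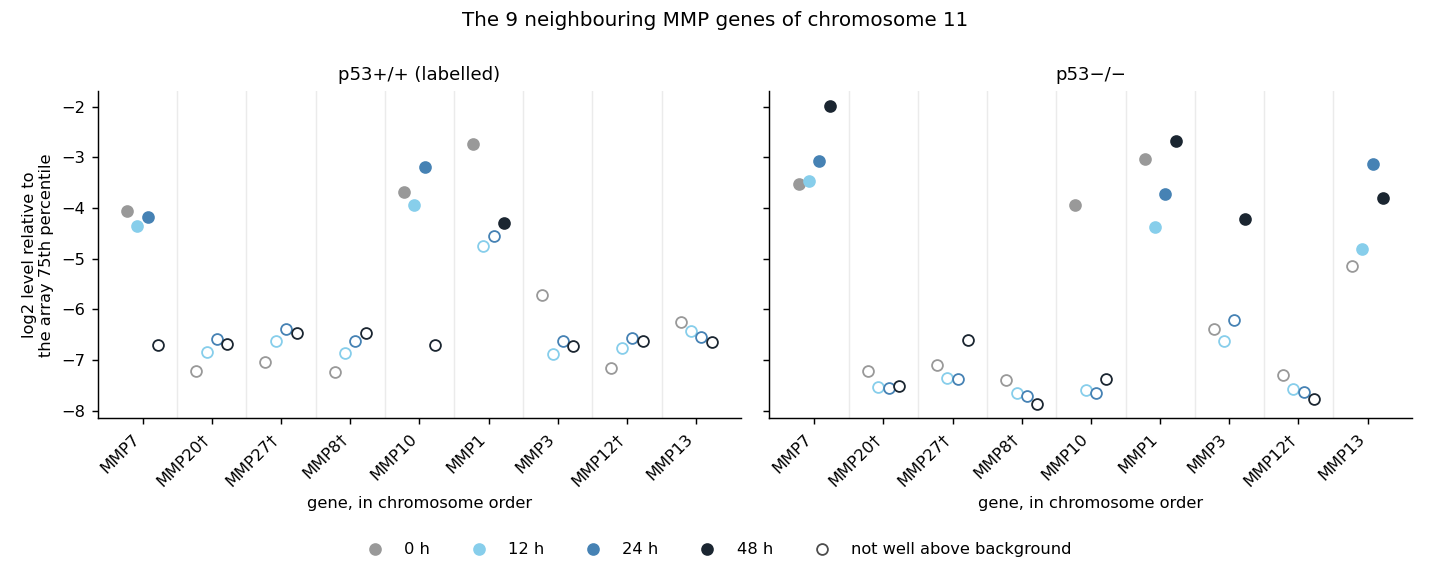
Log2 level relative to the array's 75th percentile for the 9 neighbouring MMP genes of chromosome 11, in chromosome order (daggers mark genes outside the list of 10), in p53+/+ and p53−/− cells at 0, 12, 24 and 48 h. Hollow points were not well above background, and levels are to be read within a gene. The lowest signal well above background was higher on the treated p53+/+ arrays than on the treated p53−/− arrays. MMP10 is filled at 12 and 24 h in p53+/+ cells alone, MMP13 from 12 h on in p53−/− cells alone.

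Other genes whose levels followed these transcripts most closely were listed for the 5 genes that were well above background on at least 4 arrays and spanned at least 2 on the log2 scale. Among 3122 candidate genes, the highest Pearson correlations with TIMP3 over the 8 arrays were those of TRIM29 and EPAS1 (r = 0.99 for both). MMP2 was followed by MGP and SNED1 (r = 0.99), MMP7 by GPR19 and ELOVL3 (r = 0.98), MMP1 by PDZK1 and CIART (r = 0.93 and 0.90) and MMP10 by INSC and CFAP251 (r = 0.92 and 0.88). The patterns of TIMP3, MMP2 and MMP7 were common, with 479, 245 and 227 candidates at r above 0.9, whereas MMP1 had 2 and MMP10 had 1. These values describe 8 points that share genotype, time and slide.

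Other enzymes and inhibitors of the family were tested in the same fit, in which 10.4% of all probes were called higher in p53+/+ and 7.48% higher in p53−/− cells. Those shares are the background of the counts that follow. Of 15 further MMPs, 6 were not well above background on any array and 9 were tested. MMP19 was higher in treated p53+/+ cells (1.73, SE 0.31, adjusted p = 0.0133), and MMP24, not well above background in treated p53+/+ cells, was at least 1.72-fold higher in treated p53−/− cells (adjusted p = 0.00432). Of 3 tested other inhibitors, TIMP2 was higher in treated p53−/− cells (−1.07, SE 0.19, adjusted p = 0.0131). TIMP2, which links pro-MMP2 to MMP14 at the cell surface, was picked out after its values were seen. The 2 TIMPs that differed between genotypes thus did so in opposite directions.

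Of 9 tested genes of pro-enzyme activation, 2 were higher in p53+/+ and 2 in p53−/− cells. ST14, the epithelial surface protease matriptase, was higher in p53+/+ cells by 2.91 and PLAT, tissue plasminogen activator, by 1.10 (adjusted p = 0.000497 and 0.0481 from limma). SERPINE2, a protease inhibitor, was higher in p53−/− cells (−1.47, adjusted p = 0.0356). Among 10 tested ADAM and ADAMTS genes 1 was called in each direction, and ADAMTS1, not well above background in treated p53+/+ cells, was at least 3.65-fold higher in p53−/− cells (adjusted p = 0.00455). Of 15 transcription factors of the AP-1, ETS, RUNX and NF-kB families, 0 were higher in p53+/+ and 3 higher in p53−/− cells, ETS2 by 1.29 among them (log2 difference −1.29, adjusted p = 0.0135).

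Ligands that induce MMPs went both ways, with 4 of 9 tested higher in p53+/+ and 1 in p53−/− cells. IL1A and IL1B, the interleukin 1 cytokines, were higher in p53+/+ cells by 5.26 and 3.94, and AREG, an EGF receptor ligand, by 1.57 (adjusted p = 0.000112, 0.00219 and 0.00412 from limma). IL6 was higher in p53−/− cells (−3.47, adjusted p = 0.00374). The 2 untreated arrays were far apart for IL1B (2.67 on the labelled p53+/+ and −1.39 on the p53−/− array) and IL6 (1.97 and −3.52). Of 10 matrix substrates, 4 were higher in p53+/+ and 3 in p53−/− cells. COL17A1 and LAMA3, of the hemidesmosome and its laminin, were higher in p53+/+ cells by 3.83 and 2.86, and FN1, fibronectin, was higher in p53−/− cells (−3.14). COL1A1, also a fibroblast marker, was not well above background in treated p53+/+ cells and at least 2.85-fold higher in p53−/− cells.

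Cell type markers moved with the genotype too. Of 9 markers of basal mammary epithelium, 7 were higher in treated p53+/+ cells and 0 in p53−/− cells, with CDH1 (E-cadherin) by 3.98 and KRT5 by 2.06, and TP63 well above background on 3 of 8 arrays. The summed level of the 9 markers, the log2 of their added linear levels, was 8.56 to 8.73 in treated p53+/+ and 6.92 to 7.19 in treated p53−/− cells, and 7.57 and 7.46 on the labelled p53+/+ and the p53−/− 0 h arrays. Of 8 fibroblast markers, 5 could be tested, 0 were higher in p53+/+ and 4 higher in p53−/− cells, LUM, DCN, COL1A1 and PDGFRB. Their summed level was 2.12 to 2.40 in treated p53+/+ and 5.71 to 6.07 in treated p53−/− cells, and 5.77 and 5.87 at 0 h on the labelled p53+/+ and the p53−/− array. That sum over different probes was carried by DCN, which alone read 2.09 to 2.37 in treated p53+/+ and 5.70 to 6.07 in treated p53−/− cells. COL1A2, COL3A1 and THY1 were not well above background on any array, and 7 of the 8 were not in treated p53+/+ cells. MMP2 was well above background on the same 5 arrays as LUM, all but the treated p53+/+ ones. That pattern was not particular to fibroblast markers, as COL1A1, the endothelial marker PECAM1, MMP24 and ADAMTS1 shared it. Of the candidate genes, 245 followed MMP2 at r above 0.9. The part of these marker differences in the differences of MMP2, MMP13 and TIMP3 was not tested. Of 6 leukocyte markers 1 was called in each direction, with summed levels of 2.16 to 2.52 and 2.60 to 3.14 in treated p53+/+ and p53−/− cells. Of 4 endothelial markers 1, PECAM1, was higher in p53−/− cells, with summed levels of −2.48 to −2.13 and −1.48 to −0.98.

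**Figure D4:**
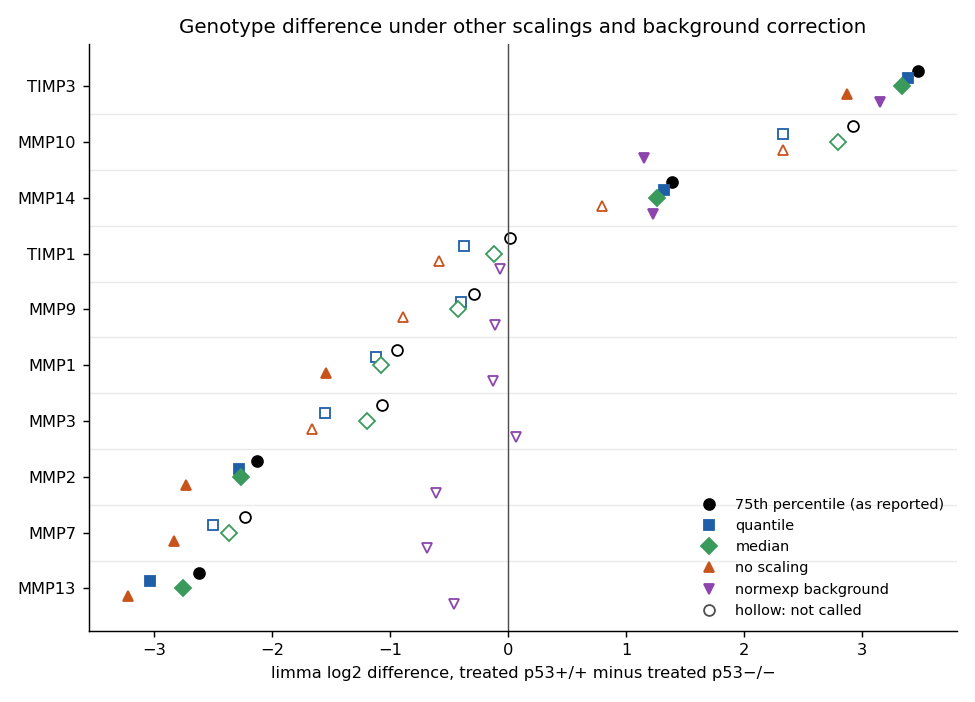
Limma log2 difference of treated p53+/+ minus treated p53−/− cells for each gene with the scaling as reported, 3 other scalings and normexp background correction. Filled symbols were called at an adjusted p of 0.05. TIMP3 was called under all 5, MMP14 under all but no scaling, and MMP2 and MMP13 under all but normexp, with which MMP1, MMP2, MMP3, MMP7 and MMP13 lay between −0.69 and 0.07 and MMP10 was called at 1.15.

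Scaling moved the median of all probes in the treated comparison from 0.09 as reported to −0.04 with quantile normalization, −0.05 with the median, −0.51 without scaling and 0.27 with normexp. Relative to these medians, TIMP3, MMP14 and MMP10 stayed higher in p53+/+ cells and MMP2, MMP7 and MMP13 higher in p53−/− cells. The difference of MMP3 was positive (0.07) with normexp. Spike-in scaling, added for 12 and 24 h after the data were seen, moved each genotype difference by −0.51 and −0.69. With it TIMP3 stood at 2.23 and 3.68, MMP10 at 3.14 and 3.76, MMP14 at 0.47 and 0.998, and TIMP1 at −0.83 and −0.71.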

How the data were processed

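RNA of MCF10A p53+/+ and p53−/− cells was measured on 8 single-colour Agilent arrays. For each genotype and time point there was 1 array, of which the authors deposited the scanner output, made with Agilent Feature Extraction 10.7.3.1 per the submitters' processing notes on an hg19 design. The values used are its processed signal, a background-corrected intensity, and the deposited series table held the same numbers (503808 of 503808 equal), so it gave no alternative. Here log2 signals minus each array's 75th percentile were averaged over the spots of a probe, leaving out flagged spots, which kept 42391 of 42405 probes. Probes were named by transcript accession through a RefSeq table of GRCh38.p14, which matched 27235 (64.2%).

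Genotypes were compared with limma 3.58.1 in R 4.3.3 (lmFit and eBayes) on the 6 treated arrays, over probes well above background on at least 1 of them, and the interaction on all 8. Changes from 0 h and differences at 1 hour have no test, and past 2-fold was called. A fold against a group not well above background is a bound that uses the lowest signal well above background on each array. Where the gene's own level was higher than that signal, its own level was used. In such cases, as for MMP2 between genotypes at 12 h, the bound equals the plain fold to a level not measured above background. Precision is limited by the number of arrays, and nothing shows separate cultures, so p-values measure only the spread between these arrays. Alternatives were other scalings (quantile, median, none, spike-in probes), normexp (offset 50), run on median spot intensities in the absence of mean ones, other filters on dim probes, the mean of all probes, a 3-fold rule, a signal floor, time point as a block, each treated time left out, and the p53−/− 0 h array as baseline. The fit was tested on simulated data. Members, gene lists and tests were chosen with earlier results of these data known. Named beside the 10 members are genes that check the labels, list genes past 2-fold between genotypes at all 3 treated times and detected well above background in whichever genotype was higher (at most 4 a list), and the 2 genes most correlated with a member well above background on at least 4 arrays over a range of at least 2. Some genes that this rule covers, or that are on a list, are not reported here by name. Python 3.11.15, numpy 2.4.6, pandas 2.3.3 and matplotlib 3.10.9 were used.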

Additional observations from a re-analysis of the deposited data

Results flagged for a closer look

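In 4 genes the changes from 0 h ran in opposite directions in p53+/+ and p53−/− cells at 12, 24 and 48 h (21.5% of all probes did the same). The p53+/+ change is measured from the array labelled p53+/+ 0 h, on which CDH1 and DCN read near the p53−/− level. The limma interaction of genotype and treatment was 3.72 on the log2 scale for TIMP3 (adjusted p = 0.133), 1.44 for MMP14 (adjusted p = 0.187), −1.52 for MMP13 (adjusted p = 0.408) and −1.70 for MMP7 (adjusted p = 0.608), and none of the 4 was called. MMP13 was not well above background on any p53+/+ array, so the sign of its p53+/+ change rests on unmeasured levels. For MMP14 the p53+/+ changes at 12 and 48 h were 0.11 and 0.13, and for MMP7 the p53−/− change at 12 h was 0.05, each within 2 technical SDs of 0. The p53+/+ changes of MMP7 at 12 and 24 h, −0.31 and −0.13, were likewise within 2 technical SDs (0.33 each). The p53−/− change of TIMP3 at 48 h was −0.19, and 0.25 without scaling.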

How the results depend on the processing

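Of the differences called by limma none changed sign under the alternatives run, whereas that of MMP13 at 12 h, −1.61 as reported, was 0.01 with normexp and 0.04 with the signal floor. Leaving out the series table values, the mean of all probes and the p53−/− baseline, 172 single-gene results stayed on their side of the threshold, 9 lost the call and 5 gained it. Most of the 172 were not called as reported, among them all interaction results, and could not lose a call. Only the treated differences of TIMP3, MMP14, MMP2 and MMP13 could, and all 9 losses were theirs. Counting every setting with the reported one, TIMP3 was called in 12 of 13, MMP14 in 11 of 13, and MMP2 and MMP13 in 9 of 12 each. Of counts over the 10 genes, 77 stayed within 1.5 times the reported count and 19 did not. Genes called higher in treated p53+/+ cells numbered 2 as reported and 1 without scaling, and 0 to 3 with each treated time left out (0 without 24 h, 2 without 12 h, 3 without 48 h). Genes called higher in treated p53−/− cells numbered 2 as reported, 4 without scaling, 0 with normexp, 0 when well above background on all arrays was required, and 0 to 1 with each treated time left out (0 without 24 h, 1 without 12 h or 48 h). That filter leaves out genes not detected in 1 genotype. The fits without a time point rest on fewer arrays and also lack the values of that time. For them and for the other alternatives the cause of a changed count was not tested. The shares of all probes called under the alternatives are not given, so these counts cannot be set against them. Without scaling the median difference of all probes was −0.51. The interaction called 0 genes in each direction as reported. With the p53−/− 0 h array as baseline of both genotypes the estimate equals the treated difference, so the 2 genes called in each direction there repeat the treated calls. For differences past 2-fold at all 3 treated times, the p53+/+ direction held 1 gene as reported and 2 over 12 and 24 h only, an alternative added after seeing the data. The p53−/− direction held 2 as reported, 0 with normexp, 1 with the signal floor and 0 with the filter on all arrays. Rises past 2-fold at 48 h in p53−/− cells numbered 3 as reported, 0 with normexp, 1 with the 3-fold rule and 1 with that filter. Falls from the array labelled p53+/+ 0 h numbered 2 as reported, 1 with normexp, 1 with the 3-fold rule and 0 with that filter. The treated arrays pair across genotypes by time point, and the fit with time point as a block changed no count beyond 1.5 times (adjusted p 0.0109 for TIMP3 and 0.00717 for MMP2). No paired analysis by replicate number was possible because the labels give none. Spike-in scaling was run at all times for p53−/− cells and, added after seeing the data, at 12 and 24 h for the others, since the p53+/+ 48 h array has no spike-in signal, and gave 2 genes past 2-fold in the p53+/+ and 3 in the p53−/− direction. Signal over background limits MMP2, MMP3, MMP10 and MMP13 most, whose lower levels are bounds.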
